A study of Mus musculus with 6 samples.

Results

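Acute-phase and antimicrobial proteins are secreted proteins that rise in blood or tissue during inflammation and infection. They were followed here through 9 genes: the lysozymes Lyz1 and Lyz2, lipocalin 2 (Lcn2), serum amyloid A3 (Saa3), haptoglobin (Hp), ceruloplasmin (Cp), orosomucoid 1 (Orm1), pentraxin 3 (Ptx3) and peptidoglycan recognition protein 1 (Pglyrp1). The members were taken by gene symbol, as all probe sets annotated to 1 symbol that is one of the 9. This gave 88 of the 318760 probe sets with a single gene symbol. The genes were picked with the comparison of the cell lines already known. Their differences are therefore given as a description without p-values, and nothing is read from how many of them changed. The lists of other genes read beside them were also chosen with earlier results of these data known. Their counts and p-values are a description too, not independent support.

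OP9 is a stromal cell line from mouse bone marrow, and its total RNA was hybridized to 6 Affymetrix Mouse Exon 1.0 ST arrays. Of these, 3 carried RNA of cells with a stably integrated lentiviral pLKO.1-Puro hairpin against Smoothened (Smo shRNA), and 3 carried RNA of cells with a scrambled hairpin in the same vector (control shRNA). Both lines were therefore transduced, and both were grown below confluence without further treatment. Smoothened (Smo) is the membrane protein that passes on the signal of Hedgehog ligands, and the comparison asks what its loss changes in stromal cells. The labels describe triplicate RNA isolations per line and name no separate transductions or cultures for them, so the spread between arrays may be technical, and p-values measure that spread alone. The line and the hairpin cannot be told apart.

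Levels are log2 values as the authors deposited them, and a difference is the Smo shRNA value less the control shRNA value on that scale. A probe set usually covers an exon or part of one, and its value depends on its own probes, so levels are compared between arrays and never between probe sets or genes. Gene values join the probe sets of a gene whose mean over the 6 arrays reached the median of all probe sets (6.56), where at least 3 did so. Of the 9 genes, 8 had a gene value of this kind in the test across all genes, and Saa3 did not. Of the 88 probe sets, 78 reached the level and 10 did not. Smo, the target of the hairpin, read 11.32, 11.36 and 11.44 in Smo shRNA cells, against 12.29, 12.22 and 12.24 in control shRNA cells. It was 1.83-fold lower (-0.88, SE 0.04, limma adjusted p = 1.13e-09). Over 16871 genes, arrays of the same line correlated at 0.996 to 0.998 and arrays of different lines at 0.979 to 0.981, and no pair of arrays shared more than 0.0237% of their values.

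The acute-phase response is switched on by cytokines such as interleukin 6 and interleukin 1. They act through the transcription factors STAT3, NF-kB and C/EBP, mainly in the liver. Outside the liver many of the same proteins are made by macrophages, neutrophils, fat cells and stromal cells. Several of them act by withholding iron or haem from microbes, others by binding or cutting the bacterial cell wall. OP9 cells can turn into fat cells, which are a known source of haptoglobin, lipocalin 2 and orosomucoid.

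Of the 8 genes in the gene test, 5 were past the threshold and lower in Smo shRNA cells, where the background was 38.6% of all genes past the threshold in either direction, 17.4% lower and 21.3% higher. The threshold was a limma adjusted p of 0.05. The 5 were Lyz2, Hp, Orm1, Lcn2 and Cp, and in each of them the 3 Smo shRNA arrays lay below the 3 control shRNA arrays. Such a separation was seen toward lower values in 21.4% of all genes and toward higher values in 26.4%. Lyz1, Ptx3 and Pglyrp1 were not past the threshold. The median difference of the 8 genes was -0.41, beside 0.01 for all genes. No direction can be read from these counts, since the genes were chosen with them in view. Over probe sets, 49 of the 78 that could be tested were past the threshold and lower, 1 was past it and higher and 28 were not past it. The background was 30.0% of all tested probe sets in either direction, 12.4% lower and 17.5% higher. Among the 49 were a Lyz2 and an Orm1 probe set with Smo shRNA means under 6.56 (6.01 and 6.21). They reached the level through their control shRNA values (means 8.20 and 7.29), so the size of their differences is uncertain. The gene differences of Lyz2 and Orm1, and the calls of these genes, rest partly on them. Without regard to the test, 51 of the 78 were lower without overlap and 3 were higher without overlap, beside 17.4% and 23.6% of all tested probe sets.

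**Figure D1:**
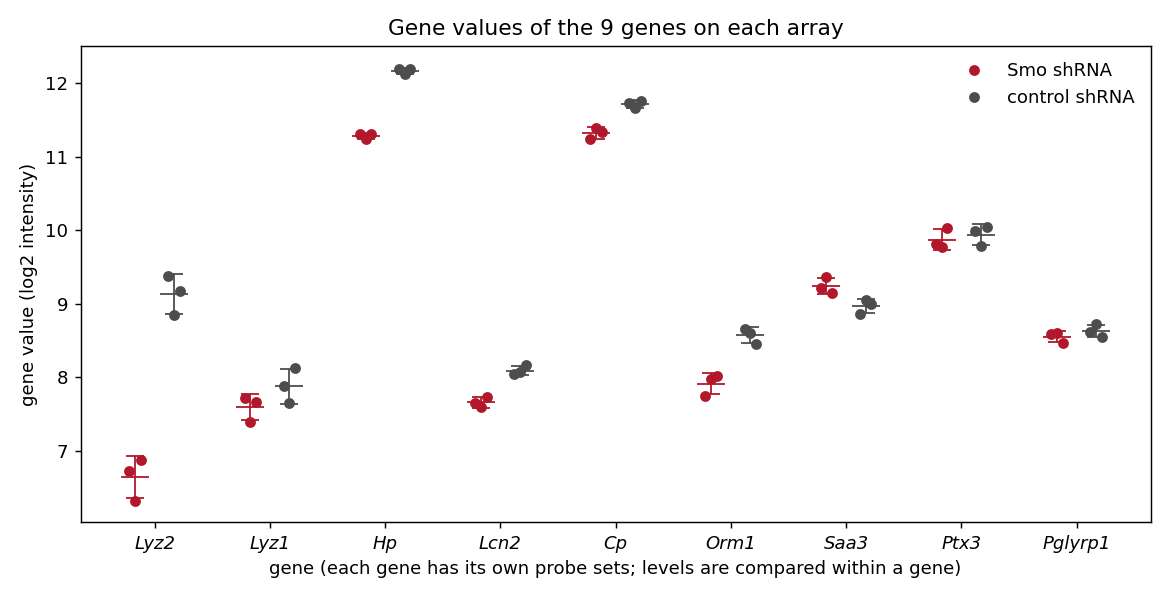
Gene values of the 9 genes (log2 intensity, vertical axis) on each of the 3 Smo shRNA arrays (red, left) and 3 control shRNA arrays (grey, right), with mean and SD as bars. Lyz2 shows the widest gap between the lines, at 6.64 against 9.13, Hp, Orm1, Lcn2 and Cp are lower without overlap, and the arrays of Ptx3, Pglyrp1 and Lyz1 overlap. Saa3 is drawn from 2 probe sets.

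The lysozymes cut the peptidoglycan of bacterial cell walls. Mice carry a pair of them side by side on chromosome 10: Lyz2, the form of macrophages and other myeloid cells, and Lyz1, the form of intestinal Paneth cells. Lyz2 had the largest difference of the 9 genes. It read 6.72, 6.32 and 6.87 in Smo shRNA cells, against 9.38, 8.84 and 9.18 in control shRNA cells. The lines were far apart, and replicate 2 was the lowest array of either line. The mean was 6.64 ± 0.29 in Smo shRNA cells and 9.13 ± 0.27 in control shRNA cells (SD, n = 3 each), a difference of -2.49 (SE 0.14), or 5.63-fold lower. The Smo shRNA mean was close to the array-wide median of 6.56, so the size of the fold is uncertain. Lyz1 read 7.71, 7.38 and 7.67 in Smo shRNA cells, against 7.88, 7.64 and 8.12 in control shRNA cells. These arrays overlapped, and the difference was -0.29 (SE 0.12). It was -0.16 without Smo shRNA replicate 2 and -0.17 without control shRNA replicate 3, and Lyz1 was past the threshold without control shRNA replicate 2 (-0.39).

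The coding sequences of the lysozymes are alike, so the probe sets were read by what they are annotated to. Of all probe sets with a single gene symbol, 14.9% were lower without overlap. All 6 annotated to Lyz2 alone were lower in Smo shRNA cells without overlap. The largest of these differences belonged to a probe set that read 7.60, 7.22 and 7.61 in Smo shRNA cells, against 10.93, 10.70 and 10.67 in control shRNA cells (-3.29). The smallest was -0.78, in a probe set that did not reach the level for testing. A further 15 probe sets were annotated to Lyz1 and Lyz2 together and entered no gene value. Of these, 13 were lower in Smo shRNA cells without overlap, by differences of -3.82 to -1.01. In 2 of the 13, among them the one at -3.82, the Smo shRNA mean was under 6.56 (5.37 and 6.39). Signal there cannot be told from background, so the size of these differences is uncertain. Without detection calls it is not known how far up background reaches, so the rest of the 13 may be uncertain in size too. The other two read nearly alike in the lines, with differences of 0.07 and 0.14 and overlapping arrays. One of them read 11.06, 11.06 and 11.31 in Smo shRNA cells, against 10.83, 11.19 and 11.20 in control shRNA cells.

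Among the 8 probe sets annotated to Lyz1 alone, 1 behaved like those of Lyz2. It read 7.56, 7.26 and 7.57 in Smo shRNA cells, against 10.79, 10.44 and 10.75 in control shRNA cells, a difference of -3.20. The other 7 ran from -0.75 to 0.59, with 5 lower and 2 higher. Of these, 2 were lower and 1 was higher without overlap. Over all probe sets with a single gene symbol, 14.9% were lower and 19.6% higher without overlap. Left without the probe set that moved with Lyz2, a choice made after seeing the data, the Lyz1 difference was -0.20. With the mean of probe sets in place of median polish it was -0.63. A probe set annotated to one lysozyme can carry signal of the other, and which transcript bound was not tested.

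**Figure D2:**
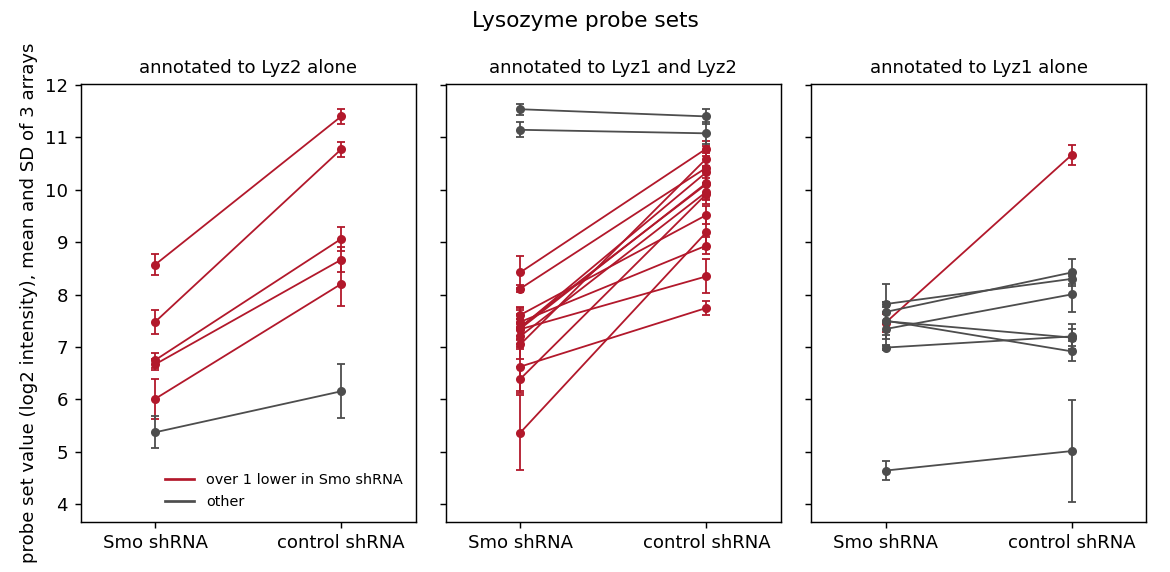
Every lysozyme probe set in Smo shRNA cells (left of each panel) and control shRNA cells (right), as mean and SD of 3 arrays in log2 intensity, split by annotation to Lyz2 alone, to both genes or to Lyz1 alone. Red lines are probe sets more than 1 lower in Smo shRNA cells. They are 5 of 6 for Lyz2, 13 of 15 for both genes and 1 of 8 for Lyz1, and 2 probe sets of both genes have differences of 0.07 and 0.14.

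The promoters of the pair are shown because the genes are neighbours whose gene values gave unlike differences (-2.49 for Lyz2, -0.29 for Lyz1). Whether the sequences bear on these differences was not tested, nor was signal shared between the probe sets. The 250 bases before each annotated start, from RefSeq on GRCm38.p6, are those of Lyz2 at chr10:117282273-117282522 and of Lyz1 at chr10:117292869-117293118, both on the minus strand. Capitals mark bases that differ between the aligned sequences or have no partner.
Lyz2: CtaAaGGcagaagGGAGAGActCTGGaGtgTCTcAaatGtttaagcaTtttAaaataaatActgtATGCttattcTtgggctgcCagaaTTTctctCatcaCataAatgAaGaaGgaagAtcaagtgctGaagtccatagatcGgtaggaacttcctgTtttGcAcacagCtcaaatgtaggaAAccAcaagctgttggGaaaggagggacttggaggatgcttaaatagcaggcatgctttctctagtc
Lyz1: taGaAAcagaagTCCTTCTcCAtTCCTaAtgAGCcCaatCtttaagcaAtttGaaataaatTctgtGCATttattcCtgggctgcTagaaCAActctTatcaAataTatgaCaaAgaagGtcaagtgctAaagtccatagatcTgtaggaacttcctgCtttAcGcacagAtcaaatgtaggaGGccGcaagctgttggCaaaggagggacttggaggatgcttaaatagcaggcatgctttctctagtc
Of 248 aligned pairs of bases, 200 were identical (80.6%), and the 50 bases next to the start were identical throughout.

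Lysozyme is a common marker of macrophages and neutrophils, so other genes of those cells were read on the same arrays. Of 13 tested myeloid markers 12 did not pass limma's adjusted threshold, where 38.6% of all genes passed in either direction. The remaining marker, the lysosomal protein gene Cd68, rose by 0.47 (SE 0.07, adjusted p = 0.000162). Ptprc, which encodes the surface protein CD45 of white blood cells, was at 8.14 ± 0.12 in Smo shRNA cells and 8.08 ± 0.11 in control shRNA cells (SD, n = 3 each). Csf1r, the receptor for macrophage colony-stimulating factor, was at 8.04 ± 0.07 in Smo shRNA cells and 8.05 ± 0.07 in control shRNA cells (SD, n = 3 each). The mean level of the list ran from 7.96 to 8.06 in Smo shRNA arrays and from 7.93 to 8.03 in control shRNA arrays. These ranges overlap. Elane and Ly6g could not be tested. A marker that was not expressed could show no fall, and without detection calls it is not known which of them were expressed.

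By root mean square distance over the 6 arrays, each gene centred on its control shRNA mean, the tested genes nearest to Lyz2 were Trim30d (0.17), Ppargc1a (0.17) and Itga1 (0.19). Their differences were -2.44, -2.44 and -2.45. With 2 lines of 3 arrays, likeness of this kind mostly reflects a similar difference between the lines. None of the 8 genes was higher, so no nearest genes were sought on that side.

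Haptoglobin binds free haemoglobin and keeps its iron from microbes. Hp read 11.30, 11.24 and 11.30 in Smo shRNA cells, against 12.20, 12.12 and 12.19 in control shRNA cells. The spread within either line was small beside the gap. The mean was 11.28 ± 0.04 in Smo shRNA cells and 12.17 ± 0.04 in control shRNA cells (SD, n = 3 each), a difference of -0.88 (SE 0.04), or 1.85-fold lower. All 7 Hp probe sets were lower without overlap, from -0.98 to -0.41, beside 17.4% of all tested probe sets.

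Lipocalin 2 binds bacterial siderophores, the small molecules with which bacteria gather iron. Lcn2 read 7.65, 7.59 and 7.73 in Smo shRNA cells, against 8.04, 8.06 and 8.16 in control shRNA cells. The difference was -0.43 (SE 0.07), or 1.35-fold lower. All 9 of its probe sets were lower, by differences of -0.87 to -0.05, and 6 of them without overlap. Of all probe sets with a single gene symbol, 14.9% were lower without overlap.

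Ceruloplasmin is the main copper protein of plasma and oxidizes iron so that transferrin can take it up. Cp had 31 probe sets, the most of the 9 genes. It read 11.23, 11.39 and 11.34 in Smo shRNA cells, against 11.72, 11.66 and 11.76 in control shRNA cells, a difference of -0.39 (SE 0.05), or 1.31-fold lower. Of the 31 probe sets, 30 were lower, with a median of -0.42 over the 31. Without overlap 26 of these were lower, beside 17.4% of all tested probe sets. A probe set read 8.54, 8.52 and 9.02 in Smo shRNA cells, against 10.29, 10.15 and 10.33 in control shRNA cells (-1.57). Another differed by -1.06, reading 6.63, 6.95 and 6.93 in Smo shRNA cells, against 7.79, 7.73 and 8.16 in control shRNA cells. These stood apart from the bulk of the Cp probe sets. One probe set was higher by 0.35 with overlapping arrays.

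Orosomucoid, or alpha-1-acid glycoprotein, is an abundant plasma glycoprotein that carries drugs and lipids. Orm1 read 7.74, 7.98 and 8.01 in Smo shRNA cells, against 8.66, 8.60 and 8.45 in control shRNA cells, a difference of -0.66 (SE 0.09), or 1.58-fold lower. Its 8 probe sets ran from -2.53 to 0.10, with 7 lower. Without overlap 6 of these were lower, beside 14.9% of all probe sets with a single gene symbol. The probe set with the largest difference read 4.78, 4.79 and 4.55 in Smo shRNA cells, against 7.46, 6.62 and 7.63 in control shRNA cells. It did not reach the level for testing, and neither did another with a difference of -1.85, so the size of both is uncertain. The gene difference was -1.02 when these were kept and -0.99 with the stricter level, so the size for Orm1 depends on which probe sets are joined. Orm2 and Orm3 lie beside Orm1 on chromosome 4, encode close relatives and also fell. Orm2 read 7.92, 7.94 and 8.17 in Smo shRNA cells, against 8.82, 8.69 and 8.71 in control shRNA cells (-0.73, SE 0.08, limma adjusted p = 5.4e-06). Orm3 read 7.37, 7.44 and 7.26 in Smo shRNA cells, against 8.46, 7.98 and 8.33 in control shRNA cells (-0.90, SE 0.11, limma adjusted p = 1.36e-05). All 7 Orm2 probe sets and 7 of 8 Orm3 probe sets were lower. Each was annotated to 1 of the 3 genes, but shared signal between such close copies was not tested.

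**Figure D3:**
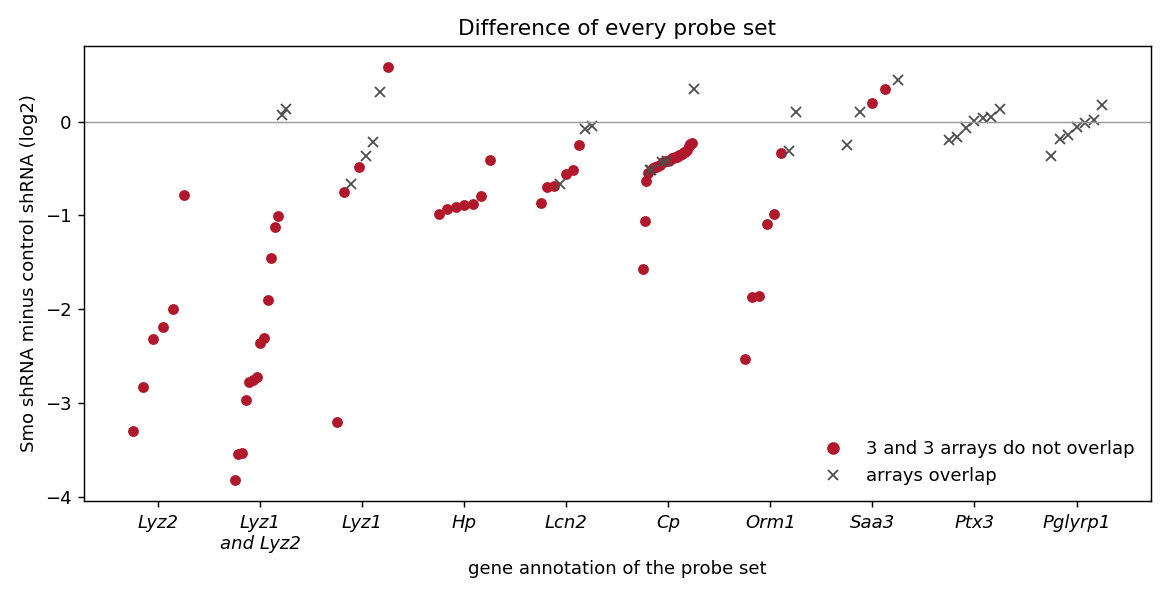
Difference of every probe set (Smo shRNA minus control shRNA, log2, vertical axis), grouped by gene annotation and ordered by size within a gene. Red dots are probe sets whose 3 and 3 arrays do not overlap, and grey crosses are those that overlap. Hp and most Cp probe sets lie close together, whereas Orm1 runs from -2.53 to 0.10 and 1 Lyz1 probe set lies at -3.20.

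Serum amyloid A3 is the member of its family made outside the liver, in fat tissue and macrophages among others. Of its 5 probe sets 2 reached the level for testing, so it was not part of the gene test. The first read 8.57, 8.70 and 8.55 in Smo shRNA cells, against 8.04, 8.36 and 8.36 in control shRNA cells (0.35). The second read 9.86, 10.02 and 9.74 in Smo shRNA cells, against 9.68, 9.72 and 9.62 in control shRNA cells (0.20). Of all tested probe sets, 23.6% were higher without overlap. Both of these Saa3 probe sets were, but by small amounts, and neither was past the threshold in the probe set test. Joined, they gave 9.24 ± 0.11 in Smo shRNA cells and 8.96 ± 0.09 in control shRNA cells (SD, n = 3 each), a difference of 0.27. The other 3 Saa3 probe sets differed by -0.24, 0.10 and 0.44 with overlapping arrays.

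Pentraxin 3 is a secreted pattern recognition molecule that stromal cells make in response to inflammatory cytokines. Ptx3 read 9.81, 9.76 and 10.03 in Smo shRNA cells, against 9.99, 9.78 and 10.04 in control shRNA cells, a difference of -0.07 (SE 0.08). Its 7 probe sets ran from -0.20 to 0.13, all with overlapping arrays. Pglyrp1 encodes a protein of neutrophil granules that binds peptidoglycan. It read 8.59, 8.60 and 8.47 in Smo shRNA cells, against 8.61, 8.72 and 8.55 in control shRNA cells, a difference of -0.07 (SE 0.07). Its 7 probe sets ran from -0.37 to 0.18 and overlapped as well. For Ptx3 the difference was smaller than the SD of either line (0.14 in both). For Pglyrp1 it was about as large as the SD, which was 0.07 in Smo shRNA cells and 0.08 in control shRNA cells.

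Other proteins of the acute phase were read from a list of 23 genes, of which 14 could be tested. In Smo shRNA cells 5 fell, 1 rose and 8 did not pass, where 17.4% of all genes fell and 21.3% rose. The median difference was -0.02 beside 0.01 for all genes. Besides Orm2 and Orm3, the genes that fell were Lbp, which encodes the lipopolysaccharide-binding protein (-0.57, SE 0.08, adjusted p = 4.62e-05), Ahsg, which encodes fetuin A (-0.56, SE 0.08, adjusted p = 0.000111), and Hpx, which encodes the haem-binding hemopexin (-0.20, SE 0.08, adjusted p = 0.0488). Mbl2, a mannose-binding lectin gene, rose by 0.24 (SE 0.09, adjusted p = 0.0437). The Hpx call was lost in 7 of 14 alternative settings, among them without Smo shRNA replicate 1 (adjusted p = 0.118) or 3 (0.181) or control shRNA replicate 2 (0.24) or 3 (0.301). The Mbl2 call was lost in 10 of 14, among them without Smo shRNA replicate 1 (adjusted p = 0.142) or 2 (0.315) or control shRNA replicate 1 (0.225) or 3 (0.113). Crp, which encodes C-reactive protein, was at 7.52 ± 0.09 in Smo shRNA cells and 7.53 ± 0.13 in control shRNA cells (SD, n = 3 each), and the fibrinogen gene Fga differed by -0.03. Saa1, Saa2 and Saa4 had no probe set with a single gene symbol at the level for testing.

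Of 22 other antimicrobial genes 12 could be tested, and 10 of them did not pass. Ang, which encodes angiogenin, a secreted ribonuclease, read 6.75, 6.99 and 6.96 in Smo shRNA cells, against 7.86, 7.57 and 7.81 in control shRNA cells (-0.85, SE 0.10, limma adjusted p = 9.51e-06). Slpi, a protease inhibitor secreted at mucosal surfaces, read 12.21, 12.15 and 12.21 in Smo shRNA cells, against 11.43, 11.42 and 11.52 in control shRNA cells (0.74, SE 0.04, limma adjusted p = 4.83e-09). Thus 1 gene of the list fell and 1 rose, where 17.4% of all genes fell and 21.3% rose. The neutrophil granule genes Camp (-0.03) and Ltf (-0.06) were among those that did not pass.

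Of 28 genes that induce or regulate the acute-phase response, among them cytokines, receptors and transcription factors, 26 could be tested. Most of these, 15, did not pass. Of the others 7 fell and 4 rose, with a median of -0.04 over the list, where 38.6% of all genes passed in either direction. Lifr, the receptor for leukaemia inhibitory factor, was 1.94-fold lower, at 10.07 ± 0.06 in Smo shRNA cells and 11.03 ± 0.03 in control shRNA cells (SD, n = 3 each, limma adjusted p = 3.95e-09). Osmr, the oncostatin M receptor, rose by 0.42 (SE 0.04, adjusted p = 2.76e-06) and Il6ra, the interleukin 6 receptor chain, by 0.33 (SE 0.06, adjusted p = 0.000303). Socs3, a feedback inhibitor of these receptors, rose by 0.38 (adjusted p = 0.000547) and was named after its value was seen.

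Of 3 tested C/EBP factors 1 fell, 1 rose and 1 did not pass. Cebpa, a factor of liver and fat cells, read 10.19, 10.37 and 10.29 in Smo shRNA cells, against 10.82, 10.74 and 10.80 in control shRNA cells (-0.50, SE 0.05, limma adjusted p = 4.78e-06). Cebpb, the C/EBP form that interleukin 6 activates, read 10.21, 10.29 and 10.19 in Smo shRNA cells, against 9.92, 9.84 and 9.95 in control shRNA cells (0.33, SE 0.05, limma adjusted p = 0.000228). Cebpd, another acute-phase C/EBP form, did not pass (-0.23, limma adjusted p = 0.059, overlapping arrays) and was named after its value was seen. Nfkb1, which encodes a subunit of NF-kB, fell by 0.29 (SE 0.05, adjusted p = 0.000352). The cytokine gene Il6 was at 9.31 ± 0.25 in Smo shRNA cells and 9.54 ± 0.07 in control shRNA cells (SD, n = 3 each) and did not pass (-0.23, limma adjusted p = 0.0765), as did Lif (-0.18, limma adjusted p = 0.149). Il6 passed in 4 of 14 alternative settings, with an adjusted p of 0.00672 without Smo shRNA replicate 3.

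Because Cebpa and Cebpb had passed, the promoters were searched for the core TTGCNNAA on either strand in the 250 bases before the start. Promoters were found for 7 of the 9 genes, in 8 windows since Cp had 2 starts. None was at hand for Hp and Orm1, so these genes were not searched for any motif. The core was present in 5 of the 8 windows and in 9.56% of all 32851 promoter windows. The matches lay in members that differed between the lines and in members that did not. They are shown with flanking bases from RefSeq on GRCm38.p6, the match in capitals. Coordinates are chr2:32387922-32387981 for Lcn2, chr7:46715742-46715801 for Saa3 and chr10:117293044-117293103 for Lyz1 on the minus strand, and chr3:19957153-19957212 for Cp and chr3:66219804-66219863 for Ptx3 on the plus strand.
Lcn2: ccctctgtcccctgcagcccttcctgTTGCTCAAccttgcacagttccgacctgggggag
Cp: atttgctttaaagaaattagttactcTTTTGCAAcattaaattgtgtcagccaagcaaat
Saa3: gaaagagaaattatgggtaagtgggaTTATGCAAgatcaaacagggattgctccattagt
Ptx3: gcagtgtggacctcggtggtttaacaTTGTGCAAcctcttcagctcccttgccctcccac
Lyz1: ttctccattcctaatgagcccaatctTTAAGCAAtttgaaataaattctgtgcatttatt
The first base of the match lay 216 bases before the start in Lcn2, 70 in Cp, 99 in Saa3, 57 in Ptx3 and 209 in Lyz1. The NF-kB consensus was found in Pglyrp1 alone, 93 bases before the start, and in 3.9% of all windows. The STAT motif TTCNNNGAA (7.02% of all windows) and the GLI motif GACCACCCA (0.225%) were found in 0 of the 8 windows. None of these motifs can be read as a bound site.

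Receptors and partners of the proteins were read from a list of 14 genes, 11 of them tested. Of these 3 fell, 4 rose and 4 did not pass, where 17.4% of all genes fell and 21.3% rose. Slc22a17, a cell surface receptor for lipocalin 2, fell, at 9.53 ± 0.01 in Smo shRNA cells and 10.05 ± 0.04 in control shRNA cells (SD, n = 3 each, difference -0.52, limma adjusted p = 2.55e-06). Slc40a1 encodes ferroportin, the iron exporter that works with ceruloplasmin. It fell by 0.71 (SE 0.08, adjusted p = 1.04e-05). Hmox1, which encodes the haem-degrading enzyme haem oxygenase 1, fell by 0.49 (SE 0.04, adjusted p = 3.43e-07).

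Tfrc, the transferrin receptor through which cells take up iron, rose the most. It read 10.75, 10.86 and 10.71 in Smo shRNA cells, against 9.41, 9.25 and 9.58 in control shRNA cells (1.36, SE 0.08, limma adjusted p = 9.46e-09), or 2.57-fold higher. Heph, which encodes hephaestin, a membrane-bound relative of ceruloplasmin, rose by 0.60 (SE 0.07, adjusted p = 1.62e-05), whereas Cp was lower. Heph was named after its value was seen. Tnfaip6, whose product joins pentraxin 3 in the hyaluronan matrix, rose by 0.65 (SE 0.06, adjusted p = 2.34e-06), while Ptx3 read alike in the lines. Scarb1, a lipoprotein receptor that also binds serum amyloid A, rose by 0.36 (SE 0.04, adjusted p = 1.22e-05). The scavenger receptor gene Cd163, through which macrophages take up haptoglobin with haemoglobin, differed by -0.01, and Lrp2, which encodes megalin, by 0.05.

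**Figure D4:**
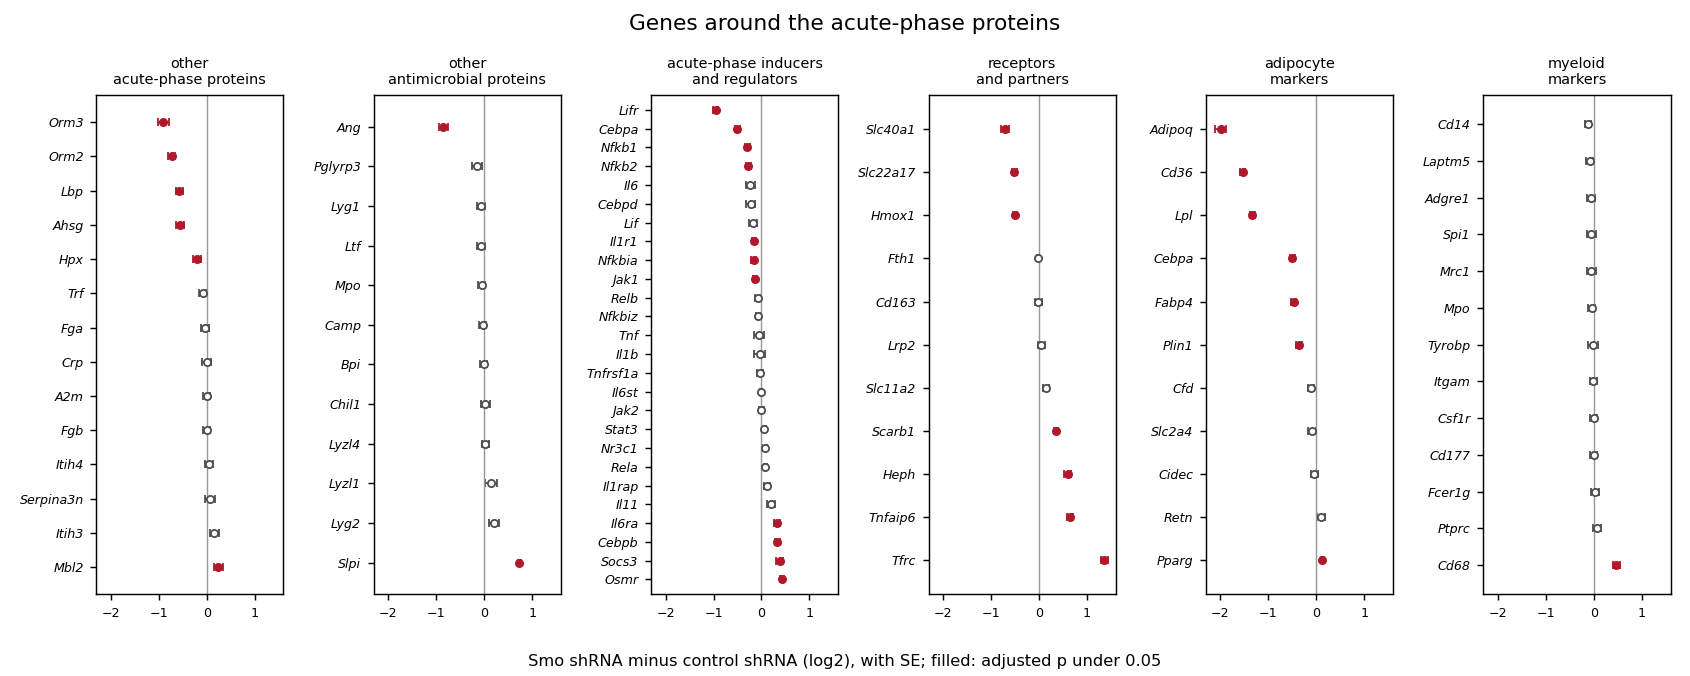
Differences (Smo shRNA minus control shRNA, log2, horizontal axis) with SE for the tested genes of 6 lists. Filled red points passed the limma threshold of 0.05 and open grey points did not. Members of the list of inducers and regulators and of the list of receptors lie on both sides of 0. Most adipocyte genes that passed were lower, and of 13 myeloid markers Cd68 alone passed.

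Several fat cell genes were lower in the same cells as Hp, Orm1, Lcn2 and Cp. Of 11 tested adipocyte markers 6 fell, 1 rose and 4 did not pass, with a median of -0.36, where 17.4% of all genes fell and 21.3% rose. Adipoq, which encodes adiponectin, read 7.68, 7.72 and 7.84 in Smo shRNA cells, against 9.98, 9.43 and 9.81 in control shRNA cells (-2.00, SE 0.11, limma adjusted p = 8.63e-09). Cd36, a fatty acid transporter gene, fell by 1.53, Lpl, which encodes lipoprotein lipase, by 1.33, Fabp4, which encodes a fatty acid-binding protein, by 0.47, Plin1, which encodes a lipid droplet protein, by 0.36, and Cebpa also belongs to this list. The Plin1 difference was -0.22 without Smo shRNA replicate 3, and its call was lost without Smo shRNA replicate 1 (adjusted p = 0.0516) or 2 (0.0571) or control shRNA replicate 1 (0.0591). The mean level of the list ran from 9.33 to 9.36 in Smo shRNA arrays and from 9.86 to 9.94 in control shRNA arrays. Pparg, the factor that drives fat cell formation, was the gene that rose (0.12, limma adjusted p = 0.00614) and was named after its value was seen. Its call was lost in 5 of 14 settings, among them without Smo shRNA replicate 3 (adjusted p = 0.054), without control shRNA replicate 1 (0.0566), 2 (0.0573) and 3 (0.0642). Cfd, which encodes adipsin (-0.11), and Retn, which encodes resistin (0.10), did not pass. In RNA of a whole culture, fewer cells of a type and less RNA per cell cannot be told apart. The part of fat cell genes in the differences of the acute-phase genes was not tested. The marker list was chosen with earlier results known, so its counts are a description. The 5 hepatocyte markers did not pass, where 38.6% of all genes passed in either direction. Of 10 stromal markers 7 fell and 3 did not pass, beside the 17.4% of all genes that fell. The mean level of the stromal list ran from 11.49 to 11.56 in Smo shRNA arrays and from 11.80 to 11.83 in control shRNA arrays.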

How the data were processed

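The authors deposited log2 values for 1256831 exon probe sets in a single table. The scale was read from the values, whose array medians lay between 6.56 and 6.59. The sources used here do not say how background was corrected or how probes were summarized and normalized, and no detection calls came with the table. In 20744 rows every array read 0, and these were treated as not measured. Gene symbols came from the platform annotation. Of 22296 symbols, 18006 were current in RefSeq (GRCm38.p6), 4227 were updated through a synonym of 1 gene and 63 were kept. No genome build is named for the array's annotation, so only promoter coordinates, on GRCm38.p6, are printed.

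Probe sets with 1 symbol and a mean of at least 6.56 were kept (245574) and joined per gene by Tukey median polish where at least 3 were kept, giving 16871 genes. Genes and probe sets were each fitted with limma 3.58.1 in R 4.3.3 (lmFit, and eBayes with a variance trend), two-sided, with Benjamini-Hochberg adjustment over all features and a threshold of 0.05. SE is the moderated standard error. The number of arrays limits the precision. Promoters were aligned with Biopython 1.88.

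The members and lists were chosen with earlier results of these data known. Text names all 9 members, Smo, up to 6 passing and up to 2 other genes per list of inducers, partners, acute-phase, antimicrobial, myeloid and adipocyte genes, and the 3 genes nearest to Lyz2. Deviations of arrays with the same replicate number correlated at 0.08, 0.10 and 0.39. The best correlated control shRNA array had the same number for Smo shRNA replicates 2 and 3, and was replicate 2 for replicate 1. These values do not settle whether the numbers are pairs. The main fit did not take them as pairs, and a fit with the replicate number as a block is given below.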

Additional observations from a re-analysis of the deposited data

How the results depend on the processing

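Results were recomputed under up to 14 alternatives: no filter or a stricter filter on dim probe sets (75th percentile of the probe set means), mean of probe sets, at least 1 kept probe set, another quantile normalization, no variance trend, robust empirical Bayes, a replicate block, and leaving out each of the 6 arrays. Probe set counts had 12, without the mean and the 1 kept probe set. The stricter filter left Lyz1, Lyz2, Lcn2, Orm3, Crp, Fga, Ang, Camp, Ltf, Lif, Cd163 and Retn out of the fit, so these had 13. It gave 3 called members of 5 tested (Hp, Cp and Orm1), against 5 of 8. It also gave 3 other acute-phase genes, 1 other antimicrobial gene and 2 myeloid markers, the last also with quantile normalization (1 higher and 1 lower). Under no alternative did a called difference of a named gene change sign. Of 33 named genes outside the members that passed, 29 passed under every alternative that could test them. The exceptions were Hpx, Mbl2, Pparg and Plin1. Of 12 named genes that did not pass, 9 changed sign and 2, Il6 and Lif, passed under at least 1 alternative. Cebpd, which was named later and did not pass, is not among the 12, and its values under the alternatives are not given. Hpx ran from -0.23 to -0.10 and Mbl2 from 0.12 to 0.35. Lif passed with the replicate block (adjusted p = 0.0377) and without control shRNA replicate 2 (0.036).

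With the replicate number as a block, 6924 genes were called in place of 6518, 6 members in place of 5 (Lyz1 added) and 53 member probe sets in place of 50. Without 1 array, 4801 to 5524 genes and 5 to 6 members were called. Lyz1 was the member added without control shRNA replicate 2 and with the mean of probe sets. With at least 1 kept probe set Saa3 entered the fit, and 6 of 9 members were called, Saa3 higher. Member differences ran from -2.61 to -2.24 for Lyz2, -0.63 to -0.16 for Lyz1, -0.91 to -0.82 for Hp, -1.02 to -0.51 for Orm1, -0.47 to -0.38 for Lcn2 and -0.44 to -0.32 for Cp. For Orm1 the difference was -1.02 without the filter and -0.99 with the stricter filter, settings that join different probe sets of the gene. Without detection calls, values near 6.56 cannot be told from background. Nor is it known at which value a gene is expressed, so a gene that did not pass may be one that was not expressed.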
